A study of Mus musculus with 9 samples.

Results

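The miR-322 cluster is a group of 7 microRNA hairpins on the mouse X chromosome, and 8 of its mature microRNAs were followed in mouse embryos carrying different deletions within the miR-17~92 cluster. The members were taken by name, as mmu-miR-322-5p, mmu-miR-322-3p, mmu-miR-503-5p, mmu-miR-351-5p, mmu-miR-542-3p, mmu-miR-542-5p, mmu-miR-450a-5p and mmu-miR-450b-5p, written below without the species prefix. They are 8 of the 986 miRNA rows that remained after rows listing the same miRNA with nearly the same values had been counted once. Small RNA had been sequenced from female embryos at embryonic day 9.5 whose heart and tail bud had been dissected off. There was 1 library for each of 8 genotypes: wild type with the full miR-17~92 cluster, deletions of miR-17, of miR-18, of miR-19 and of miR-92, combined deletions of miR-17,18 and of miR-17,18,92, and the miR-17~92 knockout, called the full deletion here. The number of embryos per library, their littermates and the zygosity of the alleles are not given in the sources used here. None of the alleles is described as touching the X-linked cluster.

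Neighbouring microRNA hairpins are often cut from a common primary transcript by the nuclease Drosha and then by Dicer, which leaves a duplex of a 5p and a 3p strand. An Argonaute protein usually keeps one strand and discards the other, and the kept strand finds targets through its seed, bases 2 to 8. The mouse miR-322 hairpin corresponds to human miR-424. With miR-503 it is known for limiting cell-cycle regulators such as cyclins and Cdc25a, and the cluster is read strongly in embryonic and muscle-forming tissue.

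The mature sequences are shown because they sort the members into those that share a seed with other miRNAs of the embryo and those that do not. They come from RefSeq (GRCm38.p6), where all 8 members matched, and run 5′ to 3′ with the seed in capitals.
miR-322-5p: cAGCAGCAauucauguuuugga
miR-322-3p: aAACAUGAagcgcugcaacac
miR-503-5p: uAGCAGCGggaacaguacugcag
miR-351-5p: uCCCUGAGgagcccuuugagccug
miR-542-3p: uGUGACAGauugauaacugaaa
miR-542-5p: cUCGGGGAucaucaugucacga
miR-450a-5p: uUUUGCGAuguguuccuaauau
miR-450b-5p: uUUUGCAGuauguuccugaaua

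The seed of miR-322-5p is that of the miR-15/16 family, and the seed of miR-351-5p is that of miR-125, as these relatives from the same table show.
miR-16-5p: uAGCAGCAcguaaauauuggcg
miR-15b-5p: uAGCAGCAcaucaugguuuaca
miR-125a-5p: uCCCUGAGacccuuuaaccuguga
miR-125b-5p: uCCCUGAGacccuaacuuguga

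In that table, 9 other mature miRNAs carried the miR-322-5p seed and 4 carried the miR-351-5p seed. miR-503-5p matched the miR-322-5p seed at 6 of 7 bases and shared its exact seed with 0 other entries. miR-450a-5p and miR-450b-5p were alike at 15 of 22 positions but at only 5 of the 7 seed bases. The seed of miR-542-5p was shared with 1 other entry, and those of miR-322-3p, miR-542-3p, miR-450a-5p and miR-450b-5p with 0.

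All 7 hairpins lie close together on the minus strand of chromosome X (GRCm38.p6, not the build of the deposited table). In the order of transcription they are Mir322 (53054255 to 53054349), Mir503 (53053984 to 53054054) and Mir351 (53053255 to 53053353), then Mir542 (53049403 to 53049487). Mir450-2 (53048299 to 53048367), Mir450-1 (53048154 to 53048244) and Mir450b (53047997 to 53048078) follow. The gap between Mir351 and Mir542 is 3767 bases, and no other gap exceeds 1035 bases. The RefSeq non-coding transcript C430049B03Rik (53053112 to 53057190) spans Mir322, Mir503 and Mir351 and ends before Mir542. In this annotation the hairpins are therefore neighbours on 1 strand, but only the upstream 3 lie within 1 annotated transcript. miR-450a-5p is encoded by both Mir450-1 and Mir450-2. Its 2 rows in the table differed by 0 reads in every genotype library but that of the miR-17 deletion, where they differed by 7 reads, and were counted as 1. Whether reads that match both loci were split between them or counted for each is not known. The level, share and place of miR-450a-5p beside the other members depend on this.

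The 8 libraries held 6564461 to 18481223 miRNA reads. Levels are given in nRPM, the deposited normalised reads multiplied by 1 factor that brings an average library to the scale of RPM, and 1 read was worth 0.0624 to 0.157 nRPM. The deleted miRNAs followed the labels. miR-17-5p lay at 8.87 to 180.0 nRPM in the 4 libraries that lacked it and at 17331 to 53720 nRPM in the other 4. miR-18a-5p lay at 4.30 to 72.6 against 3446 to 12792 nRPM, miR-19a-3p at 4.93 to 15.1 against 3157 to 83047 nRPM, and miR-92a-1-5p at 0 to 1.26 against 502 to 2097 nRPM. Although the heart had been removed, the heart and muscle miRNA miR-1a-3p was read at 1531 to 5005 nRPM and the heart miRNA miR-208a-3p at 6.27 to 176 nRPM. Another heart miRNA, miR-208b-3p, lay at 8.89 to 28.4 nRPM. The endothelial miR-126-3p (6053 to 14901 nRPM) was read in all libraries. So were the neural miR-9-5p (620.1 to 3686 nRPM) and miR-124-3p (937 to 1502 nRPM). Of the blood-cell miRNAs, miR-486-5p (608 to 1300 nRPM) and miR-142-3p (114 to 849 nRPM) were read in all libraries. The blood-cell miR-223-3p, at 0 to 9.71 nRPM, was not. In whole embryos a lower level in each cell and fewer cells of a type cannot be told apart, and the part of tissue make-up in the results below was not tested.

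The 8 members summed to 8459 nRPM in wild type, 9045 in the miR-17 deletion, 10392 in the miR-18 deletion and 7671 in the miR-19 deletion. The sum was 6656 nRPM in the miR-92 deletion, 9477 in the miR-17,18 deletion, 9015 in the miR-17,18,92 deletion and 10253 in the full deletion. The highest library thus exceeded the lowest 1.56-fold, and wild type lay between them. Against wild type, the sum ranged from 0.787 times in the miR-92 deletion to 1.23 times in the miR-18 deletion. The fold range of the single members ran from 1.84 for miR-503-5p to 12.2 for miR-450a-5p. A sum of members that go both ways varies less than they do, so the range of the sum is not set against theirs. The median fold range of the 8 members was 2.79, beside 2.35 over the 320 miRNAs averaging 100 nRPM or more outside miR-17~92, the cluster's own included.

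**Figure D1:**
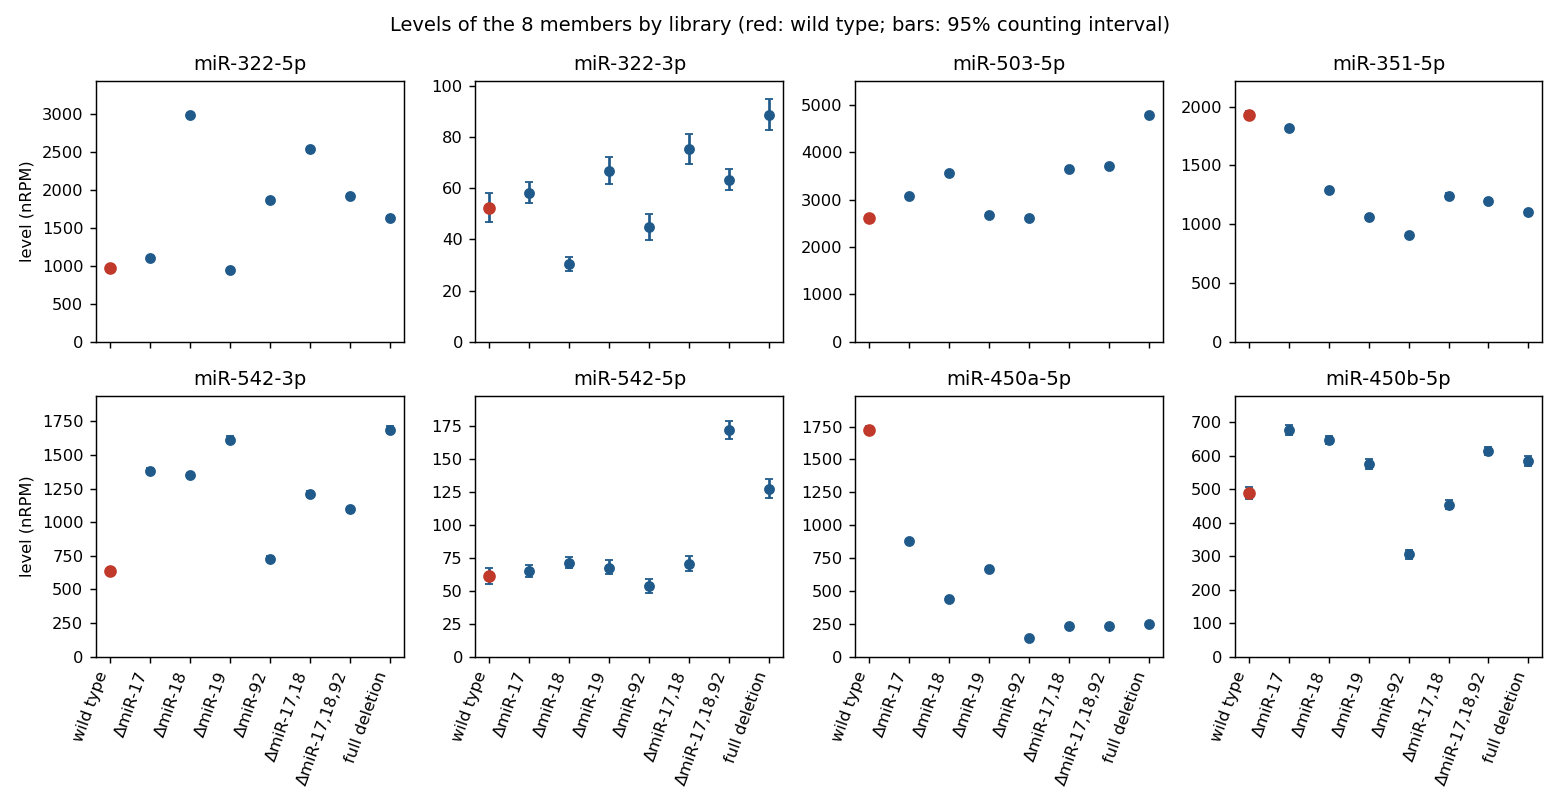
Level of each of the 8 members in each library (nRPM, linear axes, wild type in red), with exact Poisson 95% intervals that cover counting error only. miR-503-5p spans 2603 to 4785 nRPM, whereas miR-450a-5p ranges from 1724 nRPM in wild type to 140.96 nRPM in the miR-92 deletion.

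miR-503-5p, the miR-15/16-like member, was the most abundant member in all 8 libraries and ranked 64 of 986 miRNAs by its mean. It was read at 2603 nRPM in wild type, 3067 in the miR-17 deletion, 3567 in the miR-18 deletion, 2677 in the miR-19 deletion and 2614 in the miR-92 deletion. The combined deletions gave 3656 nRPM (miR-17,18), 3718 nRPM (miR-17,18,92) and 4785 nRPM (full deletion). Wild type was the lowest library and the full deletion the highest, at 1.84 times wild type (95% interval 1.81 to 1.87, counting error only, as for all ratios below). The 4 libraries without miR-18 all lay above the 4 that kept it, at 3567 to 4785 against 2603 to 3067 nRPM. The same held for 1.81% of all 551 miRNAs averaging 10 nRPM or more. Scaled to plain library totals, 3 of those 4 libraries lay above the others. Among the 4, the miR-17,18, miR-17,18,92 and full deletions also lacked miR-17.

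miR-322-5p, which carries the miR-15/16 seed, is encoded 200 bases before miR-503 and varied more than miR-503-5p. It stood at 967 nRPM in wild type, 1102 in the miR-17 deletion and 945 in the miR-19 deletion, and at 2991 in the miR-18 deletion and 1865 in the miR-92 deletion. The combined deletions gave 2541 nRPM (miR-17,18), 1921 nRPM (miR-17,18,92) and 1632 nRPM (full deletion). The miR-18 deletion was the highest library, at 3.09 times wild type (3.01 to 3.18), and the miR-17,18 deletion followed at 2.63 times. Libraries with and without miR-18 overlapped, since the miR-92 deletion lay above the full deletion. The ratio of miR-322-5p to miR-503-5p reads, which does not depend on how libraries are scaled, ranged from 0.341 in the full deletion to 0.839 in the miR-18 deletion.

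miR-322-3p, the less abundant strand of the same hairpin, ran from 30.4 to 88.7 nRPM with a median of 60.7. Its lowest library was the miR-18 deletion, the highest for the 5p strand. The 5p strand therefore outnumbered the 3p strand 98.4-fold there and 14.2-fold in the miR-19 deletion. The 3p strand made up 1.01% of the hairpin's reads in the miR-18 deletion (exact binomial 95% interval 0.919% to 1.10%) and 5.13% in wild type (4.61% to 5.69%).

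miR-351-5p, the member with the miR-125 seed, was highest in wild type. Its levels were 1929 nRPM in wild type, 1816 in the miR-17 deletion, 1294 in the miR-18 deletion, 1057 in the miR-19 deletion and 904 in the miR-92 deletion. The miR-17,18 deletion gave 1237 nRPM, the miR-17,18,92 deletion 1198 nRPM and the full deletion 1102 nRPM. All 7 mutants were lower than wild type, by little in the miR-17 deletion (0.942 times) and most in the miR-92 deletion (0.469 times, 0.455 to 0.483).

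miR-542-3p, a strand reported to act on the survivin gene Birc5, was lowest where miR-351-5p was highest. It stood lowest in wild type at 634 nRPM and next lowest in the miR-92 deletion at 728 nRPM. The other single deletions gave 1384 nRPM (miR-17), 1351 nRPM (miR-18) and 1614 nRPM (miR-19), and the combined ones 1211 nRPM (miR-17,18), 1096 nRPM (miR-17,18,92) and 1686 nRPM (full deletion). The full deletion exceeded wild type 2.66-fold (2.57 to 2.75). Both libraries without miR-19, at 1614 and 1686 nRPM, lay above the 6 that kept it, at 634 to 1384 nRPM. The higher of them, the full deletion, also lacked the other families.

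miR-542-5p, the other strand, lay between 53.5 and 71.1 nRPM in 6 libraries. It was higher in the miR-17,18,92 deletion at 172 nRPM (2.82 times wild type, 2.53 to 3.15) and in the full deletion at 127 nRPM. The 4 libraries without miR-18 lay above the other 4, at 70.4 to 172 against 53.5 to 67.5 nRPM, a gap of few reads at its narrow end. As given for miR-503-5p, 1.81% of the 551 miRNAs did the same. Scaled to plain library totals, 2 of those 4 libraries lay above the others. Of these 4, all but the miR-18 deletion also lacked miR-17.

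miR-450a-5p varied most. It was read at 1724 nRPM in wild type, 877 in the miR-17 deletion, 440.3 in the miR-18 deletion, 668 in the miR-19 deletion and 140.96 in the miR-92 deletion. The combined deletions gave 233 nRPM (miR-17,18), 232 nRPM (miR-17,18,92) and 247 nRPM (full deletion). Wild type was thus the highest library and every mutant lower, from 0.509 times in the miR-17 deletion to 0.0818 times (0.0765 to 0.0873) in the miR-92 deletion. Its range of 12.2-fold became 6.22-fold without the wild-type library and 7.41-fold without the miR-92 deletion. Among the 320 abundant miRNAs described above, 5 had a range at least this wide, miR-450a-5p counted among them. A list of 5 trophoblast miRNAs, 3 of which had a row, was likewise highest in wild type, at 840.3 nRPM in sum, and lowest in the miR-17,18 deletion at 190.3 nRPM. That sum was almost wholly miR-669c-5p, while miR-467b-5p lay at 0 to 2.10 nRPM and at 0 in wild type. Its part in the result was not tested.

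miR-450b-5p, encoded 75 bases beyond Mir450-1, varied less. It stood at 489 nRPM in wild type, 677 in the miR-17 deletion, 647 in the miR-18 deletion, 576 in the miR-19 deletion and 306 in the miR-92 deletion. The combined deletions gave 454 nRPM (miR-17,18), 614 nRPM (miR-17,18,92) and 585 nRPM (full deletion). The miR-92 deletion was the lowest library, as for miR-450a-5p, miR-351-5p and miR-542-5p. The summed neural markers miR-9-5p and miR-124-3p had the same highest and lowest libraries as miR-450b-5p, at 5001 nRPM in the miR-17 deletion and 1663 nRPM in the miR-92 deletion. Of the pair, miR-9-5p was highest and lowest in these libraries and miR-124-3p was not. Their part in the levels of miR-450b-5p was not tested. Reads of miR-450a-5p outnumbered those of miR-450b-5p 3.53-fold in wild type and were 0.379 times as many in the miR-17,18,92 deletion.

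The order of levels changed with these shifts. After miR-503-5p, which led everywhere, the wild-type library had miR-351-5p, miR-450a-5p, miR-322-5p, miR-542-3p and miR-450b-5p in falling order. In the miR-92, miR-17,18 and miR-17,18,92 deletions the order was miR-322-5p, miR-351-5p, miR-542-3p, miR-450b-5p and miR-450a-5p. Over the 8 libraries the mean levels of miR-351-5p (1317 ± 364 nRPM, SD, n = 8) and miR-542-3p (1213 ± 381 nRPM, SD, n = 8) differed by less than their spread. So did those of miR-450a-5p (570.4 ± 530.2 nRPM, SD, n = 8) and miR-450b-5p (544 ± 122 nRPM, SD, n = 8). These are spreads over genotypes, since no genotype had a second library. Within single libraries, the read ratio of miR-351-5p to miR-542-3p ran from 0.654 in the full deletion to 3.04 in wild type. That of miR-450a-5p to miR-450b-5p ran from 0.379 in the miR-17,18,92 deletion to 3.53 in wild type.

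As shares of the summed cluster, miR-503-5p made up 30.8% to 46.7%, miR-322-5p 11.4% to 28.8% and miR-351-5p 10.8% to 22.8%. The share of miR-542-3p ran from 7.49% in wild type to 21.0% in the miR-19 deletion. That of miR-450a-5p ran from 20.4% in wild type to 2.12% in the miR-92 deletion. miR-450b-5p kept to 4.60% to 7.51%. Among the 15 read ratios between the 6 more abundant strands, the ratio of miR-503-5p to miR-450b-5p was the steadiest, at 4.53 to 8.54 (1.89-fold). The ratio of miR-322-5p to miR-450a-5p moved most, from 0.561 in wild type to 13.2 in the miR-92 deletion (23.6-fold).

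**Figure D2:**
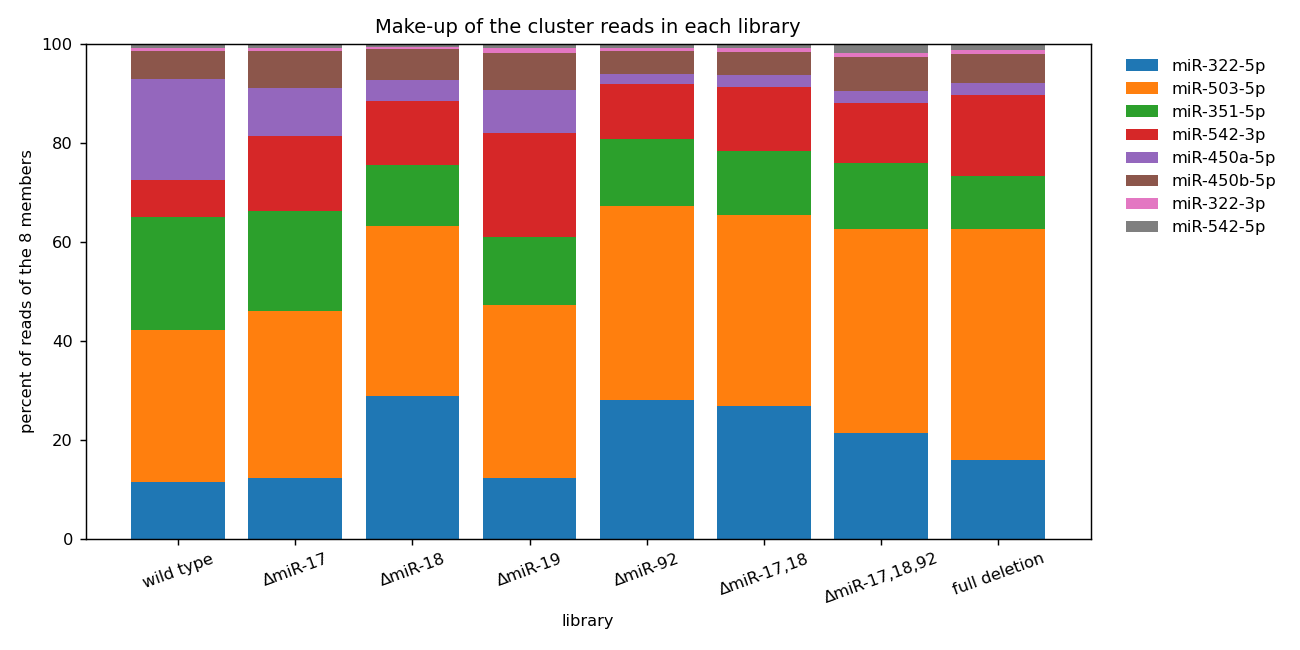
Share of each member in the summed reads of the 8 members (percent, stacked bars from 0 to 100) in each library. The miR-450a-5p segment is 20.4% in wild type and 2.12% in the miR-92 deletion, whereas miR-503-5p takes the most in every library.

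Mutant libraries were set against the wild-type library by size alone. A ratio of 2 or more in either direction was seen in 15 of the 56 pairs of member and mutant, 8 higher and 7 lower. Among all 551 miRNAs averaging 10 nRPM or more, all 8 members among them, 18.4% of pairs were past this limit, 8.4% higher and 10% lower. miR-450a-5p gave 6 of the 15 pairs, in every mutant but the miR-17 deletion, and miR-351-5p in the miR-92 deletion gave the other lower one. The higher pairs were miR-542-3p in the deletions of miR-19, miR-17 and miR-18 and the full deletion, miR-322-5p in the miR-18 and miR-17,18 deletions, and miR-542-5p in the miR-17,18,92 and full deletions. miR-503-5p, miR-322-3p and miR-450b-5p stayed within 2-fold of wild type in all 7 mutants. When libraries were scaled to their plain totals, the pairs became 12 higher and 6 lower, and the share of all pairs past the limit became 11.98% higher and 8.04% lower. That scaling moved the median log2 ratio of all 551 miRNAs by up to 0.37, against up to 0.03 with the deposited scaling.

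By mutant, the miR-17 deletion had 1 member higher and 0 lower, beside 4.54% and 7.8% of all 551 miRNAs. The miR-18 deletion had 2 higher and 1 lower (background 9.26% and 8.17%), and the miR-19 deletion 1 and 1 (4.72% and 9.98%). The miR-92 deletion had 0 higher and 2 lower (9.07% and 8.53%). The miR-17,18 deletion had 1 and 1 (11.4% and 13.4%), the miR-17,18,92 deletion 1 and 1 (11.3% and 10.7%) and the full deletion 2 and 1 (8.53% and 11.6%). No mutant moved more than 3 of the 8 members past 2-fold, and in 5 of the 7 mutants members lay past it in both directions. All 7 ratios share the wild-type library, which was the highest of 8 for 2 members and the lowest for 2. It was the highest for 11.98% and the lowest for 13.6% of the 551 miRNAs.

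**Figure D3:**
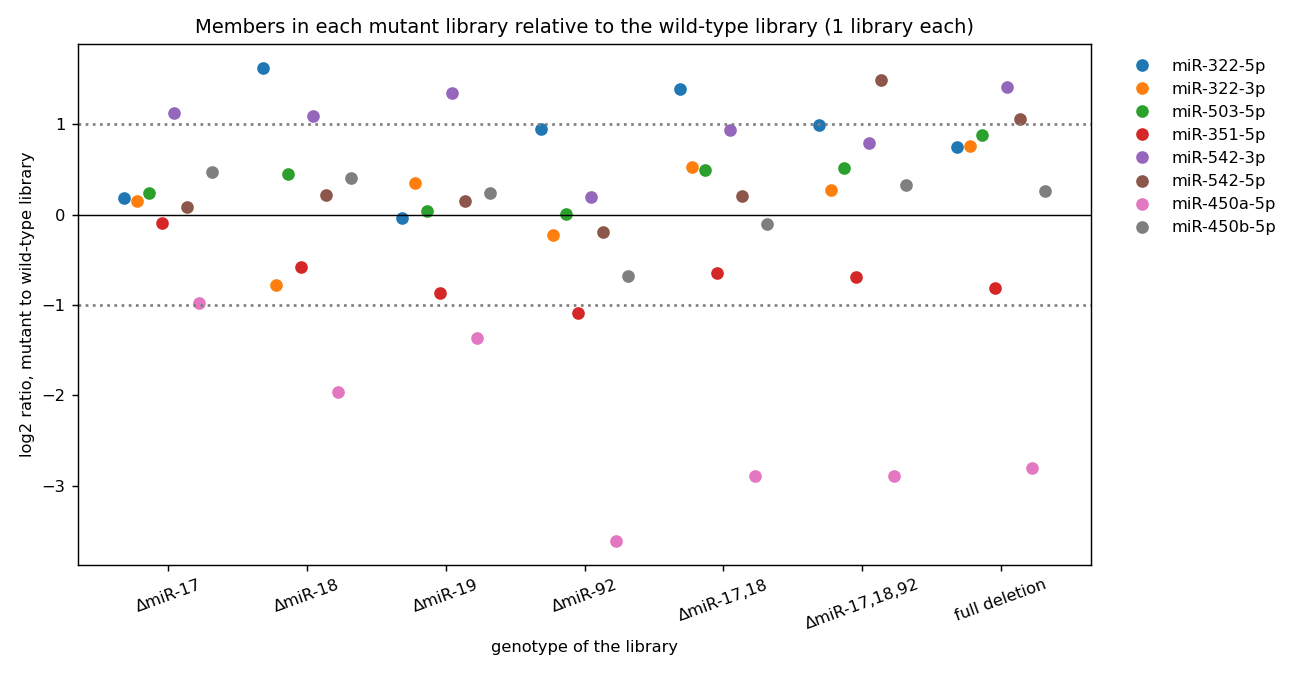
Log2 ratio of each member in each of the 7 mutant libraries to the wild-type library, with lines at 2-fold and no intervals drawn. miR-450a-5p lies below the lower line in 6 mutants and miR-542-3p above the upper line in 4.

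Whether the loss of one miR-17~92 family moved the members was tested with limma on log2(nRPM + 1), in 1 model with an additive term for the loss of each family over the 8 libraries. At a Benjamini-Hochberg adjusted p of 0.05 over 551 miRNAs, 0 of 8 members were called for each of the 4 terms. The calls over all miRNAs, 0.726% for the loss of miR-17 or miR-19 and 0.363% for that of miR-18 or miR-92, were all arms of miR-17~92. At an unadjusted p under 0.05, 0 members passed for miR-17 and 0 for miR-19, beside 3.09% and 3.81% of all miRNAs, and 1 each for miR-18 and miR-92, beside 4.54% and 1.63%. These were miR-322-5p for the loss of miR-18 (log2 difference 1.07 ± 0.34 SE, limma adjusted p = 0.648) and miR-450a-5p for the loss of miR-92 (−1.50 ± 0.60 SE, limma adjusted p = 0.990). The log2 difference of miR-450a-5p for the loss of miR-92 became 0.30 without the miR-92 deletion library. Without the miR-18 deletion library, 0 members had an unadjusted limma p under 0.05 for the loss of miR-18. On the recovered reads, edgeR's quasi-likelihood test and DESeq2 also called 0 members, with 1 and 2 of the 32 member and term pairs at an unadjusted p under 0.05.

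The median log2 difference of the 8 members was −0.18 for the loss of miR-92, 0.27 for miR-17, 0.22 for miR-19 and 0.25 for miR-18, and over all 551 miRNAs it lay between −0.01 and 0.02. Libraries with and without a family did not overlap for miR-503-5p and miR-542-5p (miR-18) and for miR-542-3p (miR-19), in each case with the deleted libraries higher. That is 2 of 8 members for miR-18, where 1.81% of all miRNAs did the same, and 1 of 8 for miR-19, where 4.17% did. Of the 4 libraries without miR-18, 3 also lacked miR-17. Of the 2 without miR-19, 1 was the full deletion, which lacked all 4 families. These splits therefore do not separate 1 family from the others. For miR-17 and miR-92, 0 members lay higher without overlap (1.09% and 0.726% of all miRNAs). Lower without overlap were 0 members for every family, beside 1.63% of all miRNAs for miR-92, 2.0% for miR-17, 4.54% for miR-19 and 3.81% for miR-18. Under plain totals, 3 of the 4 libraries without miR-18 lay above the others for miR-503-5p, and 2 of 4 for miR-542-5p. Scaled to totals outside miR-17~92, 3 of 4 lay above the others for miR-542-5p. miR-542-3p kept its gap under all 5 scalings. The summed cluster overlapped between the groups for all 4 families. Its difference in mean log2 was 0.31 for miR-18, 0.20 for miR-17, 0.02 for miR-19 and −0.08 for miR-92, the last becoming 0.12 under plain totals and 0.10 without the miR-92 deletion library.

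Whether members of different hairpins were high and low in the same libraries was read from the correlation of their log2 levels. Over the 8 libraries, the 26 pairs of members from different hairpins had a median Pearson r of 0.15, with 15 pairs positive and 11 negative, from −0.69 to 0.83. All 53956 pairs of miRNAs averaging 100 nRPM or more had a median r of −0.01. Pairs of other hairpins within 10000 bases on 1 strand had a median of 0.06. The 413 of them on chromosome 12 had a median of 0.05, and the 73 from elsewhere a median of 0.19. The members' median was 0.39 without the wild-type library, 0.37 without the miR-18 deletion, −0.01 without the miR-92 deletion and 0.30 under plain totals, where that of all pairs was 0.11. The points of each pair share their library, its depth and its scaling.

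**Figure D4:**
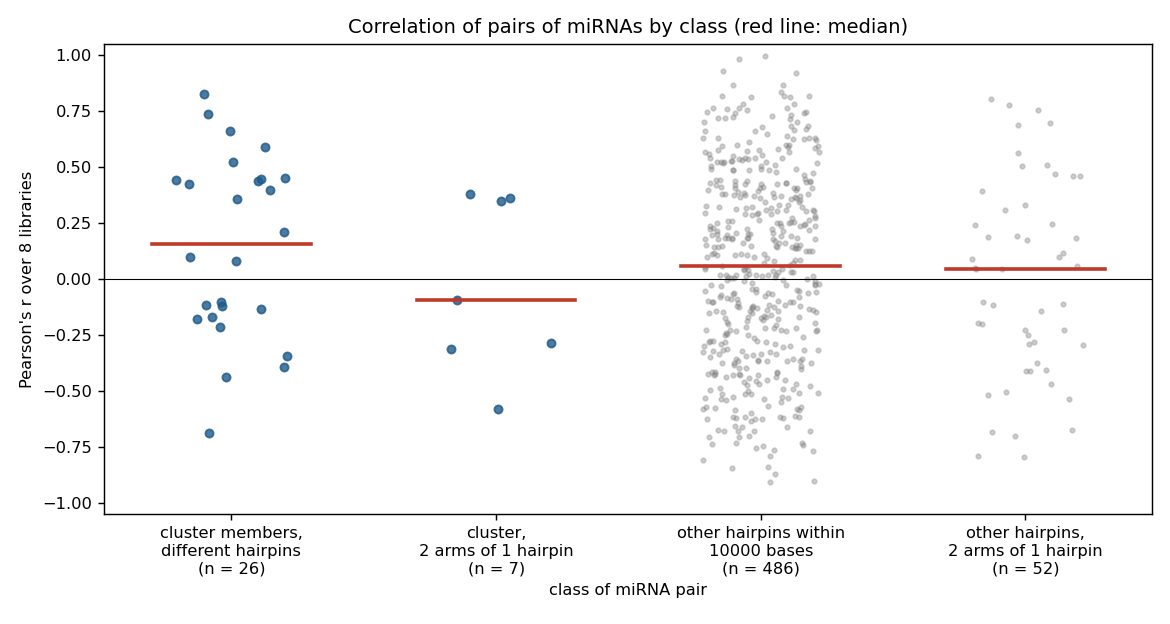
Pearson r over the 8 libraries for pairs of miRNAs (1 point a pair, log2 levels), grouped by what the pair shares, with a red line at each median. The cluster's pairs from different hairpins spread from −0.69 to 0.83 around 0.15, and the other neighbouring hairpins spread around 0.06.

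An exact permutation p under 0.05 was reached by 2 of the 28 member pairs, beside 8.06% of 54615 pairs among 331 miRNAs. No pair of the 54615 kept a Benjamini-Hochberg adjusted p under 0.05. With 8 libraries the smallest p these permutations could give was 2.5e-05. Over 54615 pairs, a single pair at that p could not reach an adjusted p under 0.05 unless many others came near it. A p above the threshold, adjusted or not, therefore does not show that a pair is unrelated.

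miR-351-5p and miR-450a-5p had the highest r, 0.83 (two-sided exact permutation p = 0.0110, adjusted 0.501). Their Spearman rho was 0.69 (exact p = 0.0694, adjusted 0.641). Without the wild-type and miR-17 deletion libraries, in which miR-351-5p was highest, r was 0.37 over the narrower range that was left. A narrower range can lower r by itself, so this value does not settle how far the 0.83 rests on those 2 libraries. With any 1 library left out, r lay between 0.69 (without wild type) and 0.96 (without the miR-19 deletion). miR-503-5p and miR-542-5p had an r of 0.74 (exact p = 0.0317, adjusted 0.577) and a rho of 0.90 (exact p = 0.00456, adjusted 0.497), with r = 0.63 without the full deletion and wild type. miR-322-5p and miR-450a-5p moved most against each other, with an r of −0.69 (exact p = 0.0645, adjusted 0.639) and a rho of −0.60 (exact p = 0.132, adjusted 0.707). That r was −0.40 without the miR-19 deletion and wild type.

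The pairs were also set out by position along the cluster. Among the more abundant strands of the upstream hairpins miR-322, miR-503 and miR-351, the 3 values of r were −0.39, 0.52 and −0.17. Among those of miR-542, miR-450a and miR-450b, downstream of the 3767-base gap, they were −0.12, 0.66 and 0.44. The 9 pairs across the gap had a median of 0.10, with 5 positive. The highest r of all, between miR-351-5p and miR-450a-5p, joined hairpins on different sides of the gap.

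**Figure D5:**
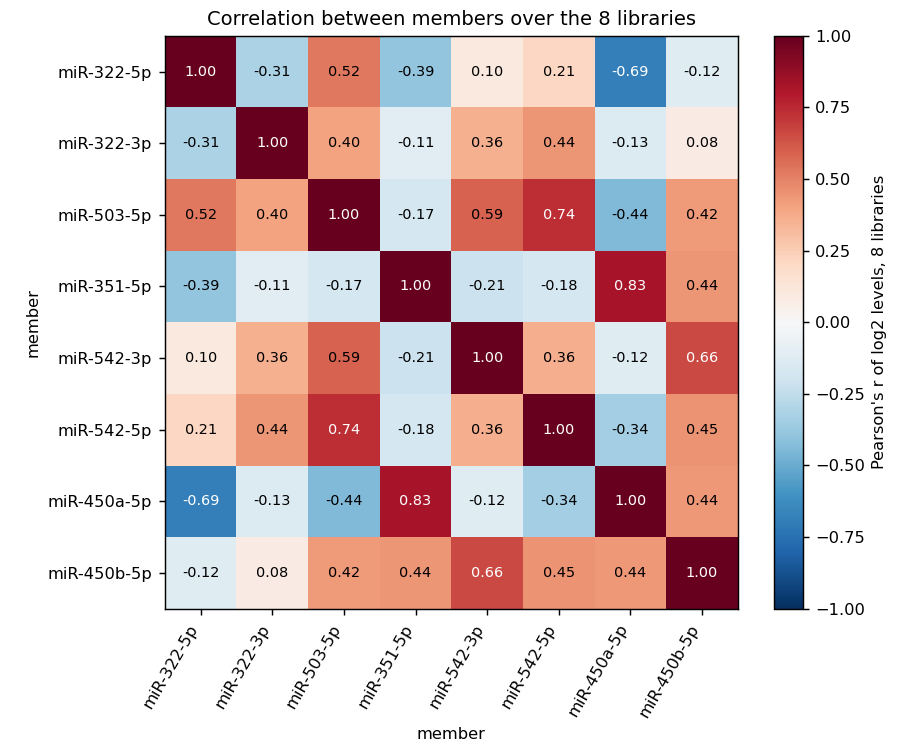
Pearson r over the 8 libraries between each pair of the 8 members (log2 levels), in the order of the hairpins along the transcribed strand. Positive and negative values are mixed on both sides of the gap, with miR-351-5p and miR-450a-5p at 0.83 and miR-322-5p and miR-450a-5p at −0.69.

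Strands of 1 hairpin start as 1 duplex, and their levels were compared in the same way. Counting the other annotated strands (miR-503-3p, miR-351-3p, miR-450a-1-3p, miR-450a-2-3p and miR-450b-3p), the cluster gave 7 pairs of a 5p and a 3p strand. Their r ran from −0.58 for miR-450b to 0.38 for miR-450a-5p and miR-450a-2-3p, with 3 positive and 4 negative, and 0 had an exact permutation p under 0.05. In 52 other hairpins with both strands averaging 100 nRPM or more the median r was 0.04. Of the cluster's pairs, only those of miR-351 (r = −0.29) and miR-450b (r = −0.58) had both strands at that level.

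The hairpin miR-450b was the only one of the 5 compared in which the more abundant strand switched. Its 5p strand outnumbered the 3p strand 2.94-fold in the miR-17 deletion, but the ratio was 0.613 in the miR-92 deletion. There miR-450b-3p made up 62.0% of the hairpin's reads (exact binomial 95% interval 60.7% to 63.3%), against 43.9% (42.5% to 45.2%) in wild type and 25.4% in the miR-17 deletion. miR-450b-3p reached 499.5 nRPM in the miR-92 deletion, its highest library, whereas miR-450b-5p was lowest there. miR-542-3p outnumbered miR-542-5p in all 8 libraries, by 6.37-fold in the miR-17,18,92 deletion to 23.9-fold in the miR-19 deletion. miR-503-5p led its 3p strand by 32.8-fold in wild type to 92.8-fold in the miR-17,18,92 deletion, and miR-351-5p led by 4.06-fold to 11.0-fold. Of the strands from the 2 miR-450a hairpins, miR-450a-1-3p was read at 18.3 to 35.6 nRPM and miR-450a-2-3p at 1.26 to 17.4 nRPM.

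Relatives that carry the same seeds were read beside the members. Of 12 names listed for the miR-15/16 family, 5 had a row, and they summed to 5678 nRPM in the miR-17 deletion up to 9001 nRPM in the miR-17,18 deletion. miR-16-5p, at 3703 to 5352 nRPM, and miR-15b-5p, at 1230.2 to 2424 nRPM, were the most abundant. In wild type the family summed to 6222 nRPM, and miR-322-5p with miR-503-5p to 3570.3 nRPM. In the miR-18 deletion these sums were 6774 and 6558 nRPM. The miR-125 relatives of miR-351-5p summed to 2012 nRPM in the miR-92 deletion up to 5864 nRPM in the miR-18 deletion, with miR-125b-5p at 897 to 4025 nRPM and miR-125a-5p at 688 to 1838 nRPM. miR-351-5p was likewise lowest in the miR-92 deletion but highest in wild type.

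Other microRNA clusters give a scale for the correlation within a cluster. The median r was 0.70 for the single pair of miR-143-3p and miR-145-5p, 0.52 for 3 pairs of miR-183, miR-182 and miR-96, and 0.31 for 10 pairs of the miR-302 cluster. It was 0.27 for the X-linked miR-106a cluster (6 pairs), 0.23 for the pair miR-191-5p and miR-425-5p, and 0.22 for 6 pairs of the miR-290 cluster. It was −0.10 for the miR-200b cluster and −0.36 for the miR-106b cluster, with 3 pairs each. The 3 miR-15/16 relatives averaging 100 nRPM or more had a median of 0.72. The value of 0.15 for the miR-322 cluster lay inside this range. So did the 0.10 of its 6 strands averaging 100 nRPM or more, the level that was also asked of the other clusters.

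The mean log2 level of the 6 more abundant strands was used to rank 321 other miRNAs averaging 100 nRPM or more by correlation with it. The 15 pairs among these strands themselves had a median r of 0.10, so the mean stands for no shared course. Over the 8 libraries the highest r were those of miR-369-5p (0.92), miR-196a-5p (0.87 and 0.84 in its 2 rows) and miR-99b-3p (0.86). The lowest were those of miR-291b-5p (−0.88) and miR-291a-5p (−0.86). miR-369-5p, miR-196a-5p and miR-99b-3p were all lowest in the miR-92 deletion, where the mean of the 6 strands was also lowest, and both miR-291 strands were highest there. miR-369-5p lay at 23.9 nRPM in that library and at a median of 271 nRPM over the 8. The mean of the 6 strands was 9.49 in the miR-92 deletion and 10.04 to 10.37 in the other libraries. These r are the extremes of 321 values, and the part of that 1 library in them was not tested.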

How the data were processed

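Mapping and counting had been done by the submitters, whose processing notes name the build mm9 and the tools STAR 2.2.0, featureCounts from Subread 1.4.2 and SAMtools 0.1.19; no source used here says how reads mapping to several places were treated. The deposited signal values are normalised reads per mature miRNA. Dividing a column by its smallest step gave back whole reads (100% of values within 0.001 reads). Rows listing the same accession were merged when their totals lay within 10% of each other, which turned 1046 rows into 986. The deposited signal times 0.1159 is the nRPM value.

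limma (3.58.1, trend, 3 residual degrees of freedom) was run on the 551 miRNAs averaging 10 nRPM or more, and p-values were adjusted by the Benjamini-Hochberg method. edgeR (4.0.16) and DESeq2 (1.42.0) on the recovered reads were alternatives, as were other scalings, pseudocounts, filters and leaving out each library. Only the limma fit was tested on simulated data. Libraries of different genotypes stand in for replicates, and a p-value reflects the spread among them alone. Correlations used log2(nRPM + 1) and all 40320 pairings of the 8 libraries (SciPy 1.17.1). Intervals are exact and cover counting error only.

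The members, lists and alternatives were chosen with earlier results of these data known. Named miRNAs were all members, the other strands of their hairpins, the 2 most abundant of each list of relatives and clusters, the 4 most and 2 least like the cluster, and tissue markers. The library of undetermined reads entered no comparison. Hairpin positions and sequences are from RefSeq, GRCm38.p6.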

Additional observations from a re-analysis of the deposited data

Results flagged for a closer look

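miR-450a-5p in wild type, at 1724 nRPM, stood apart from the other 7 libraries, whose highest was 877 nRPM in the miR-17 deletion. The gap was 0.535 of the whole range, just past the limit of 0.526 for 8 values in Dixon's test, which chance passes in about 1 of 20 sets. Of 18 ends tested (the highest and lowest library of the 8 members and their sum) this was the 1 past the limit, and on the log2 scale the gap was 0.27 of the range, under it. The 8 libraries were of different genotypes, so a difference between genotypes and a library that stands apart cannot be told apart.

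In the library of undetermined reads, which has no genotype, the 8 members summed to 10601 nRPM (30129 reads). This lay above the 6656 to 10392 nRPM of the genotype libraries, although each member on its own lay inside its range over them.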

How the results depend on the processing

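No member was called in any of the 76 combinations of an alternative fit and a lost family, where the lowest adjusted p of a member was 0.147. Of 177 values recomputed for the main comparisons, 164 stayed within their limits and 13 changed. Scaling to plain totals moved the difference of the summed cluster for the loss of miR-92 from −0.08 to 0.12, the median r from 0.15 to 0.30 and the median fold range from 2.79 to 3.04. Scaling to totals outside miR-17~92 gave a median fold range of 2.53. At 3-fold, 6 pairs of member and mutant remained past the limit. Leaving out 1 library at a time gave differences of the sum of 0.11 to 0.32 for miR-17, 0.22 to 0.37 for miR-18, −0.19 to 0.23 for miR-19 and −0.21 to 0.10 for miR-92, a median r of −0.0095 (without the miR-92 deletion) to 0.39 (without wild type), a median fold range of 2.44 to 2.79, and 12 to 14 pairs past 2-fold. Leaving out a mutant also takes its own pairs out of the count, and leaving out any library can only keep or narrow a fold range. What lay behind the other shifts was not tested. Of 336 single ratios 326, and of 104 single fold ranges 102, stayed within their limits.

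No paired analysis was possible because each genotype had 1 library, so the groups shared fewer than 2 replicate numbers. Depth limits miR-450a-2-3p most, with 12 to 165 reads. The overlap between groups under other scalings was added after the data were seen.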
